A study of Rattus norvegicus with 8 samples.

Results

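The genes described here are 10 antioxidant and stress-defence genes of rat skin: the metallothioneins Mt1 and Mt2A, the transcription factor gene Nfe2l2 (which encodes NRF2), its targets Hmox1, Nqo1, Gclc and Gclm, and the enzymes Sod1, Sod2 and Cat. They were chosen by Ensembl identifier from a list that pairs each identifier with its symbol, and all 10 were found among the 26404 genes of the count table. The libraries came from dorsal hind paw skin of Sprague-Dawley rats of 125 to 200 g under anaesthesia. The burn group (4 libraries) is skin from a paw dipped into saline of 60 °C for 2 min, a deep partial-thickness burn model, and the control group (4 libraries) is skin from the paw of the other side, dipped into saline at room temperature. Both groups therefore shared the anaesthetic urethane, the immersion and the microdialysis probe at the site that was excised. Neither sex and age nor the time from burn to excision is stated in the labels. They also do not say that each library of a group is from its own rat, so the p-values cover only the spread between these samples, which may be technical.

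Metallothioneins are small cysteine-rich proteins that bind zinc and copper. Their genes are switched on by metals through metal response elements, and also by glucocorticoids and oxidative stress. NRF2 is held at a low level by its partner KEAP1 and, when reactive molecules disable that partner, enters the nucleus and acts on antioxidant response elements in the promoters of genes that make glutathione, break down haem and detoxify quinones. Superoxide dismutases turn superoxide into hydrogen peroxide, which catalase breaks down. In skin these systems protect keratinocytes and other cells from heat, ultraviolet light and the oxidants that accompany inflammation.

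Libraries held 13693811 to 18738652 counts in burn and 17824830 to 26837925 in control. In burn replicate 3 only 15354 genes were detected, and in each of the other 7 libraries between 17322 and 17547. Fold changes with their calls, differences in ratio and share, and SDs are therefore also given without burn replicate 3. This is done where its removal changes the call or the value by more than 1.5 times. Likeness and the order of libraries are given with all libraries only. Defining markers of skin and of other cell types could not be checked, because the table gives identifiers with no symbols. In whole skin, fewer cells of a type and less RNA per cell cannot be told apart. Levels below are CPM, the count of a gene per 1000000 counts of the library, after scaling each library by its TMM factor (trimmed mean of M-values, edgeR), and they are not divided by gene length, so levels of different genes are not compared.

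Among the 10 genes Gclm rose and Hmox1 fell in burned skin, and the other 8 did not pass the threshold (edgeR quasi-likelihood test, adjusted p under 0.05). All 10 passed the filter on low counts. That is 2 of 10 genes called, where 21.9% of the 14240 genes tested were called, with 11.9% of them higher and 10% lower. At TMM-scaled levels burn and control libraries did not overlap for these same 2 genes, 1 in each direction. That compares with 31.0% of all genes tested, 15.4% with burn above and 15.6% with burn below. With burn replicate 3 left out of these levels, Mt1 and Sod1 also lay above all controls. The share of all genes in that setting was not computed. Without burn replicate 3 the test called 3 of the 10 higher (Gclm, Sod1 and Mt1), where 16.0% of all genes were higher, and 0 lower, where 13.3% were lower. The shares with all libraries are near the background, so the genes as a list are not described as responding to the burn. Their median log2 fold change, burn over control, was 0.18, against 0.06 for all genes tested, and 6 had a positive and 4 a negative estimate.

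**Figure D1:**
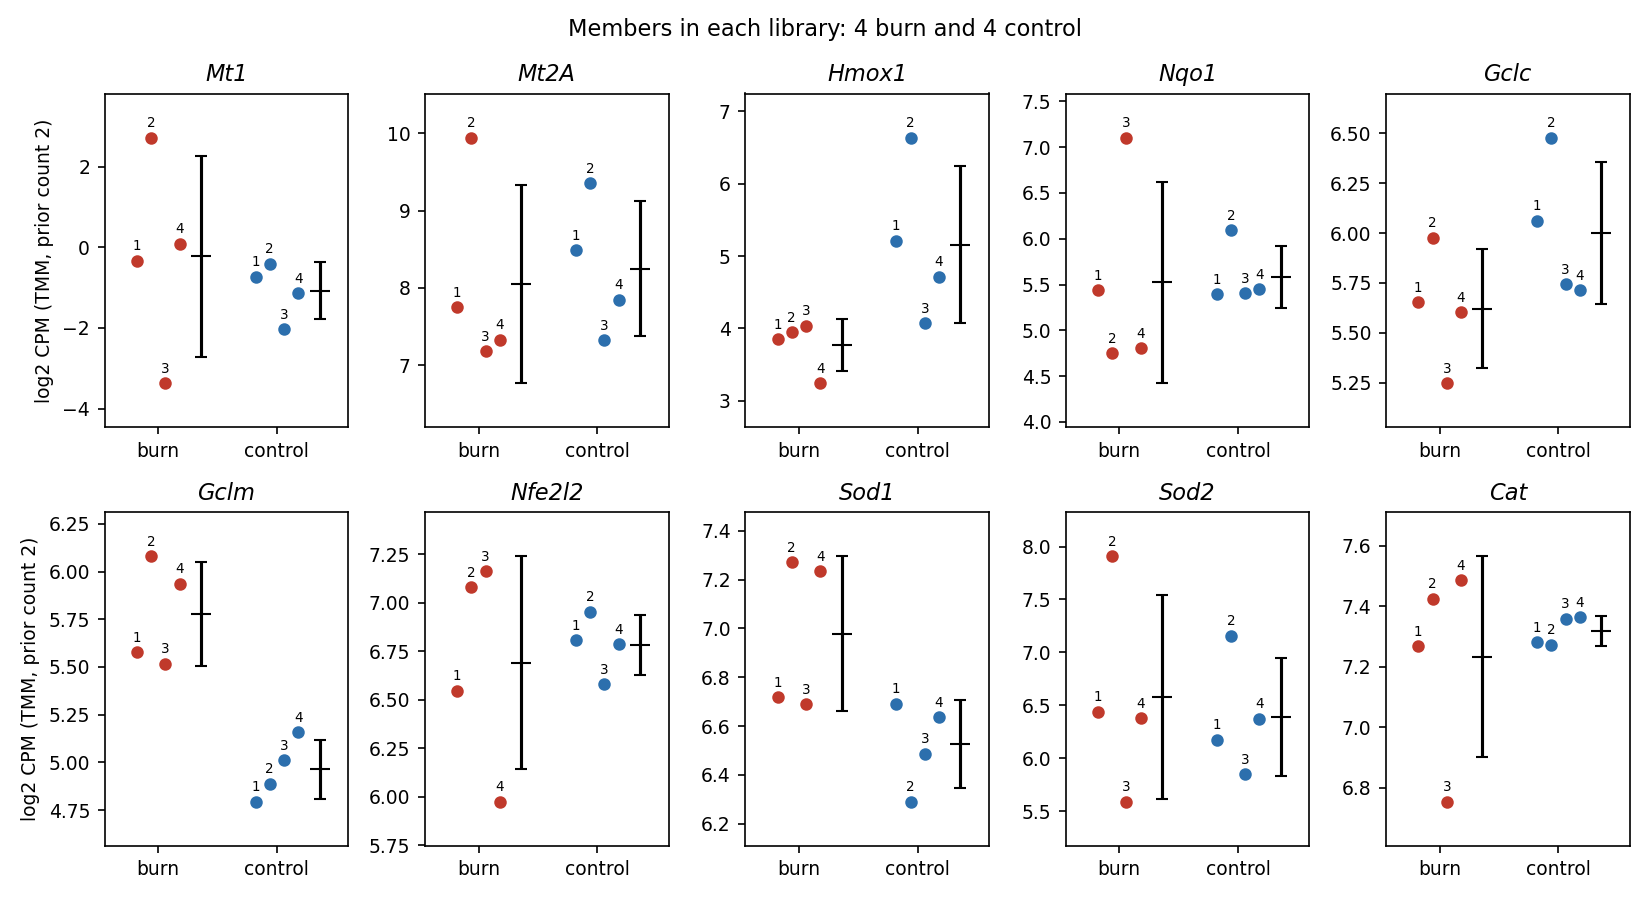
Level of each of the 10 genes in log2 CPM (TMM scaling, prior count of 2), 1 point per library with its replicate number, burn in red at the left and control in blue at the right. Black marks give the group mean and SD (n = 4). Vertical scales differ between panels. Gclm is the panel in which all burn points lie clearly above all control points, and Hmox1 the one in which all burn points lie below, by a narrow margin at control replicate 3.

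Gclc and Gclm encode the catalytic and the modifier subunit of glutamate-cysteine ligase, the rate-limiting enzyme of glutathione synthesis. Gclm (ENSRNOG00000013409) was at 47.7, 67.6, 45.7 and 61.2 CPM in burn replicates 1 to 4, against 27.7, 29.5, 32.2 and 35.6 CPM in control replicates 1 to 4. Every burn library lay above every control library. Its log2 fold change was 0.83 (SE 0.18, 95% interval 0.43 to 1.23), a 1.78-fold rise with an edgeR adjusted p of 0.0147. Without control replicate 1 or control replicate 2 the adjusted p by edgeR was 0.0531 and 0.0550, with log2 fold changes of 0.77 and 0.79.

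Gclc (ENSRNOG00000006302) was at 50.2, 62.9, 37.95 and 48.5 CPM in burn replicates 1 to 4, against 66.7, 89.0, 53.5 and 52.4 CPM in control replicates 1 to 4. Burn replicate 2 lay above control replicates 3 and 4, so the groups overlapped at these scaled levels. In CPM of total counts they did not, at 42.2, 50.6, 45.4 and 43.3 in burn against 71.1, 95.7, 60.7 and 54.8 in control. The share of all genes without overlap on that scale was not computed. For Gclc the log2 fold change was -0.39 (SE 0.23, 95% interval -0.90 to 0.12), which did not pass (edgeR adjusted p = 0.237). That interval does not reach the interval of Gclm. By library size alone the log2 fold change of Gclc was -0.64 (edgeR adjusted p = 0.0594).

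The ratio of Gclc to Gclm counts within a library does not depend on how libraries are scaled. It was 1.05, 0.930, 0.830 and 0.793 in burn replicates 1 to 4, against 2.41, 3.01, 1.66 and 1.47 in control replicates 1 to 4. All 4 burn libraries lay below all 4 control libraries. The log2 ratio averaged -0.16 ± 0.18 in burn and 1.04 ± 0.48 in control (SD, n = 4 each), a difference of -1.20, which means a ratio 2.29-fold lower in burn. The two-sided exact permutation test gave p = 0.0286, the smallest possible with 4 against 4 libraries, and 0.0714 after adjustment over the 5 pairs compared. With any 1 library left out the difference ran from -1.35 to -1.01. Because the length of a gene enters such a ratio, its value in a group says nothing of how many subunits of each kind were encoded.

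RefSeq promoter sequences (assembly GRCr8) were found for 9 of the 10 genes by symbol, all but Hmox1, and the 250 bases before the start that the table uses were read. For 6 of the 9 this window lies wholly outside the RefSeq gene, but those of Gclc, Nfe2l2 and Sod1 reach into it by 225, 250 and 81 bases, because RefSeq gives these genes a start farther upstream. The windows were searched on both strands for TGACNNNGC, the core of the antioxidant response element that NRF2 binds, for TGCACNC and TGCGCNC, the core of the metal response element, and for GAANNTTC, the core of the heat shock element. In these 9 promoters no match of one motif overlapped a match of another. Of all 33469 promoters in the table, 10.1%, 20.6% and 7.23% held at least 1 match to these. Shown here are Gclm, the gene that rose, and Mt2A and Sod2. Both of the latter were highest in replicate 2 of each group, as were Mt1 and Gclc, which are not shown. Capitals mark the matches, read on either strand.
Gclm, GRCr8 chr2:213031885-213032134, plus strand: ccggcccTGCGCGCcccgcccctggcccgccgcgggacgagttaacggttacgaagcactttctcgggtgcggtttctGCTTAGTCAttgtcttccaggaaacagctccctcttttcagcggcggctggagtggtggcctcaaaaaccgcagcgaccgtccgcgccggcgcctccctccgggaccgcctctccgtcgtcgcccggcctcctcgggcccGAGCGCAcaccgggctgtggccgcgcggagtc
Mt2A, GRCr8 chr19:10838709-10838958, minus strand: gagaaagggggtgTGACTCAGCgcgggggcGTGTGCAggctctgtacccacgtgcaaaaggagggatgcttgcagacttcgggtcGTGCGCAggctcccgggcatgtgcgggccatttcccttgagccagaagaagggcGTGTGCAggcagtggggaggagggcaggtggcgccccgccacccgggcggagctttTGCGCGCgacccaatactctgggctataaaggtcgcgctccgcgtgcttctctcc
Sod2, GRCr8 chr1:50050169-50050418, minus strand: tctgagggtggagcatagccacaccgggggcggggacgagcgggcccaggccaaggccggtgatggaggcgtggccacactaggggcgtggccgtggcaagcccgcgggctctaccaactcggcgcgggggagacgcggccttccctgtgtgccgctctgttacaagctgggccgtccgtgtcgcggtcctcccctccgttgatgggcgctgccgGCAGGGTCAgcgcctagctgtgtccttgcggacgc
Gclm had 1 antioxidant response element match, GCTTAGTCA on the opposite strand, 172 to 164 bases before the start, and 2 metal response element matches. Mt2A had 1 antioxidant response element match, TGACTCAGC, 237 to 229 bases before the start, and 4 metal response element matches. Sod2 had 1 antioxidant response element match, GCAGGGTCA on the opposite strand. In the promoter of Mt1 there were 6 metal response element matches and 1 antioxidant response element match. Sod1 had 1 heat shock element match. Nqo1 and Cat had no match to any of the motifs within the 250 bases read, and bases farther upstream were not searched. Gclc and Nfe2l2 had no match either, in windows that lie mostly or wholly inside the gene and so leave out the bases before its farthest start. These matches describe letters in a window and were not tested as binding sites.

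Hmox1 encodes haem oxygenase-1, the inducible enzyme that breaks haem down to biliverdin, carbon monoxide and iron. Hmox1 (ENSRNOG00000014117) was at 14.3, 15.4, 16.3 and 9.39 CPM in burn replicates 1 to 4, against 37.0, 99.3, 16.7 and 26.2 CPM in control replicates 1 to 4. The groups did not overlap, but burn replicate 3 came within 1 CPM of control replicate 3, and control replicate 2 was far above the other controls. In CPM of total counts the groups overlapped, with burn replicate 3 at 19.5 and control replicate 3 at 19.0. Hmox1 fell by 1.69 log2 units (SE 0.52, 95% interval -2.86 to -0.53), a 3.24-fold lower level in burn with an edgeR adjusted p of 0.0460. That call was close to the threshold. It was lost when any 1 library other than control replicate 3 was left out, with edgeR adjusted p-values of 0.0568 without burn replicate 3, 0.0579, 0.0980 and 0.0987 without burn replicates 2, 4 and 1, and 0.0602, 0.0804 and 0.0935 without control replicates 4, 1 and 2. Without control replicate 2 the estimate was -0.95.

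**Figure D2:**
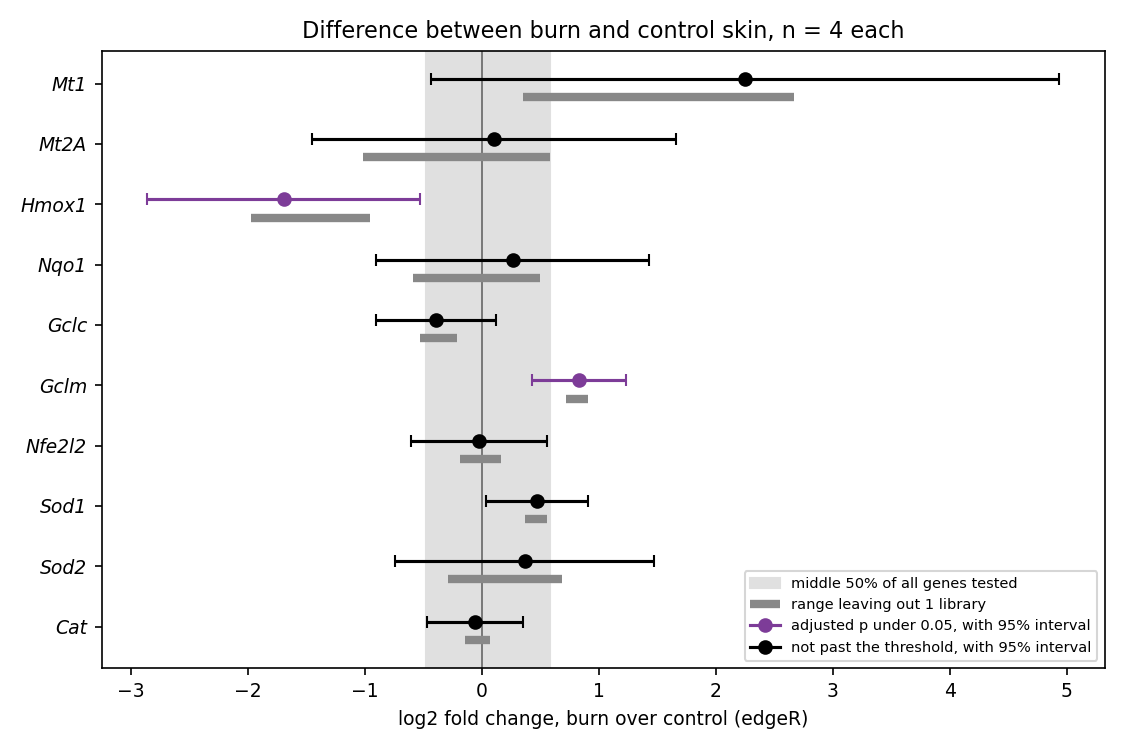
Log2 fold change of each gene, burn over control, from edgeR with its 95% interval (n = 4 each), purple for the 2 genes past the threshold and black for the others. The dark grey bars give the range of the estimate when 1 library at a time is left out, and the light band the middle 50% of all 14240 genes tested, from -0.48 to 0.59. The bars of Mt2A, Nqo1, Nfe2l2, Sod2 and Cat cross 0.

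Nfe2l2 transcripts did not pass the test. The gene (ENSRNOG00000001548) was at 93.4, 135, 143 and 62.8 CPM in burn replicates 1 to 4, against 112, 124, 95.6 and 110 CPM in control replicates 1 to 4. The burn values lay on both sides of the control values. The log2 fold change was -0.02 (SE 0.26, 95% interval -0.60 to 0.56; edgeR adjusted p = 0.959), and -0.19 without burn replicate 3. NRF2 is regulated mainly through the stability of the protein, which RNA counts do not measure.

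The ratio of Hmox1 to Nfe2l2 counts was 0.154, 0.114, 0.114 and 0.150 in burn replicates 1 to 4, against 0.331, 0.802, 0.175 and 0.238 in control replicates 1 to 4. All burn libraries lay below all control libraries and close to each other. The difference of the log2 ratio was -1.30, or 2.46-fold lower in burn (two-sided exact permutation test, p = 0.0286, adjusted over the 5 pairs 0.0714). Without control replicate 2 the difference was -0.86.

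Nqo1 encodes a quinone reductase and is a widely used readout of NRF2 activity. Nqo1 (ENSRNOG00000012772) was at 43.2, 26.8, 137 and 27.8 CPM in burn replicates 1 to 4, against 41.9, 68.1, 42.2 and 43.6 CPM in control replicates 1 to 4. Burn replicate 3 was the highest of all 8 libraries and burn replicates 2 and 4 were below every control. Over all libraries the log2 fold change was 0.27 (SE 0.52, 95% interval -0.90 to 1.43; edgeR adjusted p = 0.740). Without burn replicate 3 it was -0.59 (edgeR adjusted p = 0.110), so the sign of the estimate rested on that library.

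Hmox1 and Nqo1 are both inducible through antioxidant response elements. Their ratio was 0.333, 0.573, 0.119 and 0.338 in burn replicates 1 to 4, against 0.883, 1.46, 0.396 and 0.601 in control replicates 1 to 4. Burn replicate 2 lay above control replicate 3, so the groups overlapped. The log2 ratio differed by -1.33 (two-sided exact permutation test, p = 0.0571, adjusted over the 5 pairs 0.0952), and by -0.89 without burn replicate 3.

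**Figure D3:**
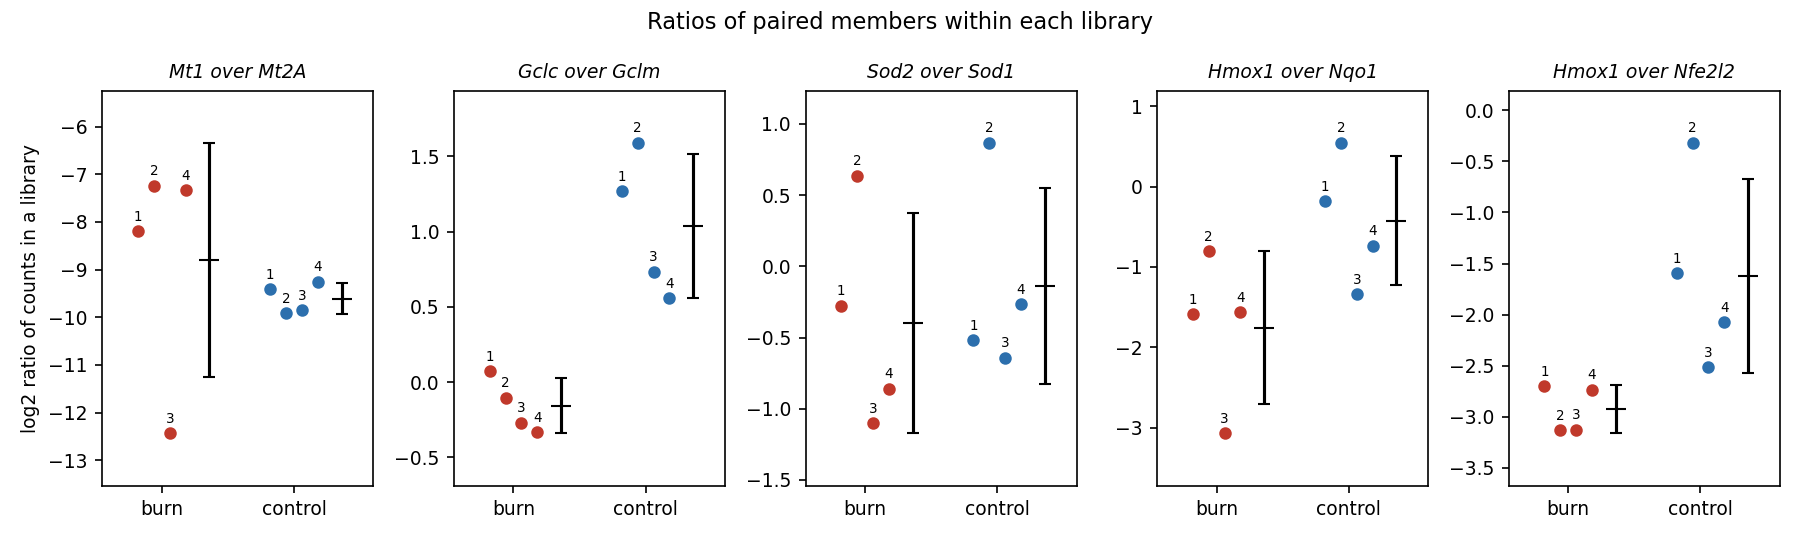
Log2 ratio of the counts of paired genes within each library, 1 point per library with its replicate number, burn in red at the left and control in blue at the right, and the group mean and SD (n = 4) in black. Burn and control points do not overlap for Gclc over Gclm and for Hmox1 over Nfe2l2, and overlap for the other 3 pairs.

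Mt2A (ENSRNOG00000043098), the metallothionein with more counts, was at 216, 984, 145 and 161 CPM in burn replicates 1 to 4, against 358, 654, 160 and 230 CPM in control replicates 1 to 4. Replicate 2 was the highest in each group, and the other burn libraries lay at the lower end of the control range or below it. Replicate numbers were given in accession order and do not pair a burned with a control paw. The estimated log2 fold change was 0.10 (SE 0.69, 95% interval -1.45 to 1.66; edgeR adjusted p = 0.929). The direction of that estimate was not stable. It was -1.01 without burn replicate 2 (edgeR adjusted p = 0.126), -0.14 and -0.05 without control replicates 3 and 4, 0.37 without burn replicate 3 and 0.59 without control replicate 2. With all libraries kept it was -0.22 by library size alone and -0.18 by limma-voom.

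The identifier listed as Mt1 (ENSRNOG00000038047) had 8, 98, 0 and 16 counts in burn replicates 1 to 4, against 13, 19, 3 and 10 counts in control replicates 1 to 4. The 0 in burn replicate 3 allows up to 0.189 CPM of total counts, taking 3 counts as the limit. This identifier took at most 0.656% of the counts of the metallothionein pair in any library. RefSeq lists 4 pseudogenes named after Mt1 in the rat, and how the counting treated reads that match several places is not stated in the labels, so its value is uncertain as a measure of Mt1 transcripts. Its log2 fold change of 2.25 (SE 1.19, 95% interval -0.43 to 4.94) did not pass (edgeR adjusted p = 0.198). Without burn replicate 3 it was 2.67 with an edgeR adjusted p of 0.0468, and without burn replicate 2 it was 0.35.

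As a share of the library, the metallothioneins together made up 0.0182%, 0.0798%, 0.0174% and 0.0145% in burn replicates 1 to 4, against 0.0382%, 0.0704%, 0.0182% and 0.0241% in control replicates 1 to 4. The Wilson 95% interval was 0.0785% to 0.0810% in burn replicate 2 and 0.0139% to 0.0150% in burn replicate 4, so counting error was small beside the difference between libraries. The groups averaged 0.0325% ± 0.0316 in burn and 0.0377% ± 0.0234 in control (SD, n = 4 each; two-sided exact permutation test, p = 0.686). The difference, -0.00526 percentage points, was -0.0210 without burn replicate 2, -0.000246 without burn replicate 3, 0.000740 without burn replicate 4 and 0.00563 without control replicate 2. The ratio of Mt1 to Mt2A was 0.00342, 0.00663, 0.000180 and 0.00617 in burn replicates 1 to 4, against 0.00147, 0.00103, 0.00108 and 0.00164 in control replicates 1 to 4. Burn replicate 3, which had no Mt1 count, was below all controls and the other burn libraries were above them. The log2 ratio differed by 0.81 (two-sided exact permutation test, p = 0.629, adjusted over the 5 pairs 0.629). It differed by 0.29, 2.02 and 0.32 without burn replicates 2, 3 and 4, and by 1.29 when 5 instead of 0.5 was added to each count (adjusted exact permutation p = 0.143), so its size depends on the number added to the 0 count.

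Sod1 encodes the copper and zinc superoxide dismutase of the cytosol, and Sod2 the manganese enzyme of the mitochondria, which is also induced by inflammatory cytokines. Sod1 (ENSRNOG00000002115) was at 105, 154, 103 and 151 CPM in burn replicates 1 to 4, against 103, 78.2, 89.6 and 99.4 CPM in control replicates 1 to 4. Burn replicates 2 and 4 stood above all controls, burn replicate 1 was just above the highest control, and burn replicate 3 just below it. With all libraries the log2 fold change was 0.47 (SE 0.19, 95% interval 0.04 to 0.90), which did not pass after adjustment over all genes (edgeR adjusted p = 0.109). Without burn replicate 3 it was 0.56 and did pass (edgeR adjusted p = 0.0464). Without control replicate 2 it was 0.39 (edgeR adjusted p = 0.263), and by library size alone 0.23 (edgeR adjusted p = 0.432). In CPM of total counts burn replicate 1, at 88.4, lay below control replicates 1, 3 and 4, at 110, 102 and 104.

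Sod2 (ENSRNOG00000019048) was at 86.7, 240, 48.1 and 83.0 CPM in burn replicates 1 to 4, against 72.1, 143, 57.4 and 82.7 CPM in control replicates 1 to 4. As for Mt2A, replicate 2 was the highest of each group. The log2 fold change was 0.37 (SE 0.49, 95% interval -0.74 to 1.47; edgeR adjusted p = 0.617), with -0.29 without burn replicate 2, 0.62 without burn replicate 3 and 0.69 without control replicate 2. The ratio of Sod2 to Sod1 was 0.825, 1.56, 0.466 and 0.551 in burn replicates 1 to 4, against 0.699, 1.82, 0.641 and 0.832 in control replicates 1 to 4, and its log2 value differed by -0.26 (two-sided exact permutation test, p = 0.6, adjusted over the 5 pairs 0.629). That difference was -0.61 without burn replicate 2, -0.027 without burn replicate 3 and 0.075 without control replicate 2.

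Cat (ENSRNOG00000008364), which encodes catalase, was at 154, 172, 108 and 179 CPM in burn replicates 1 to 4, against 155, 154, 164 and 164 CPM in control replicates 1 to 4. The control values lay within a narrow range, and burn replicate 3 was the lowest of all 8 libraries. The log2 fold change was -0.06 (SE 0.18, 95% interval -0.47 to 0.35; edgeR adjusted p = 0.841), and 0.07 without burn replicate 3. These values depend on the scaling. In CPM of total counts every burn library lay below every control, at 129, 138, 129 and 160 against 166, 166, 186 and 172. By library size alone the log2 fold change was -0.31 (edgeR adjusted p = 0.229).

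The genes differed widely in how far libraries of the same group varied. Cat had an SD of 0.33 log2 units among burn and 0.05 among control libraries, 6.81 times as large in burn. All SDs here are of TMM-scaled levels and depend on that scaling. In CPM of total counts Cat ran from 129 to 160 in burn and from 166 to 186 in control. Nfe2l2, Mt1 and Nqo1 had SDs of 0.55, 2.49 and 1.10 in burn against 0.15, 0.70 and 0.34 in control. Hmox1 ran the other way, with 0.36 in burn and 1.09 in control, and Gclc was close to even at 0.30 in burn and 0.36 in control. Burn replicate 3 carried much of this for 3 genes. Without it the burn SD was 0.11 for Cat, 0.38 for Nqo1 and 1.66 for Mt1, and that of Nfe2l2 stayed at 0.55. In all, 8 of the 10 had the larger SD in burn, and 84.0% of all genes tested did with all libraries. The count was also 8 of 10 without burn replicate 3, where the share of all genes was not computed. The median SD of all genes tested was 0.52 in burn and 0.25 in control. No test was made of these spreads.

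**Figure D4:**
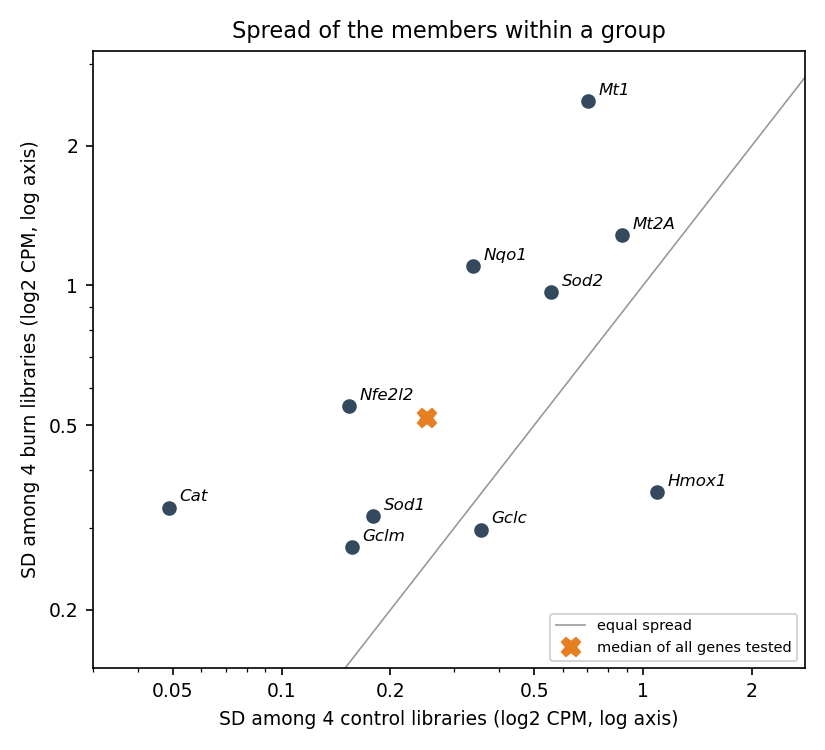
SD of log2 CPM among the 4 burn libraries (vertical, log axis) against that among the 4 control libraries (horizontal, log axis), 1 point per gene, with the line of equal spread and a cross at the median of all genes tested. Hmox1 and Gclc lie below the line, at 0.36 against 1.09 and 0.30 against 0.36, and Cat is farthest above it.

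Patterns across libraries were compared as the root mean square distance between log2 CPM values, each relative to the mean of the control libraries, over the 8 libraries. This is a description of these libraries, which share scaling factors, and says nothing of shared function. The gene of the list closest to Mt2A was Sod2, at a distance of 0.48 log2 units, which ranked 31 among the 14239 other genes tested. Mt1 ranked 8767 for Mt2A, at 1.23 log2 units, but at that same distance Mt2A ranked 647 for Mt1. The rank differs by direction, and the distance also takes in how widely a gene varies, so these ranks do not show unlike patterns. Sod1 was closest of the list to Gclm, at 0.29 log2 units and rank 291, whereas Gclc ranked 7826 for Gclm and Hmox1 13016. Within burn, replicate 2 was the highest library for 6 genes (Mt1, Mt2A, Gclc, Gclm, Sod1 and Sod2) and replicate 3 the lowest for 7 (the same 6 and Cat). This order within burn depends on the TMM factors. In CPM of total counts, Mt2A, Gclc and Sod1 were not lowest in burn replicate 3. Gclm was at 54.7 there, about level with 54.4 and 54.6 in burn replicates 2 and 4, and lowest in burn replicate 1 at 40.1. Sod1 was highest in burn replicate 4. Within control, replicate 2 was the highest for 7 genes (Mt1, Mt2A, Hmox1, Nqo1, Gclc, Nfe2l2 and Sod2). The shares of all genes highest or lowest in these libraries were not computed, so the orders are not read as particular to the list.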

How the data were processed

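RNA of rat paw skin, enriched for poly(A), was measured in 8 libraries, grouped by the treatment label. The deposited values are raw read counts per Ensembl gene, and per the submitters' processing notes TopHat2 2.0.9, HTSeq 0.5.4p3, edgeR, R 3.0.1, limma and the build Rnor_5.0 were used. Their roles, the annotation release and the strand setting are not stated there. Reads from antisense or overlapping genes could therefore not be told apart.

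The symbols came with the list of identifiers. The RefSeq table of 47357 rat genes held all 10 symbols but 0 Ensembl identifiers, so the pairing could not be checked, and the preset lists of other pathway genes and cell type markers were not analysed here. The members, lists and tests were chosen with earlier results of these data known.

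All genes were fitted with edgeR 4.0.16 in R 4.3.3 (quasi-likelihood test, robust, TMM, default expression filter, group as the only term), with Benjamini-Hochberg adjustment over the 14240 genes tested and a threshold of 0.05. SE is the size of the log2 fold change over the square root of F. Intervals use the total degrees of freedom of that fit, residual plus prior. Ratios used 0.5 added to each count. Exact permutation tests over the 8 libraries were run in SciPy 1.17.1. The genes named are all 10 on the list. For likeness the closest member was named. The edgeR fit was tested on simulated counts, in which libraries differed only in total count, group and random spread. That says nothing of results that rest on 1 odd library, such as burn replicate 3. Intervals for shares (Wilson) and limits for 0 counts cover counting error only. Alternatives were median-ratio factors (RLE), library size alone, DESeq2 1.42.0 (Wald test), no filter, a filter of 1 CPM in 4 libraries, limma 3.58.1 (voom, also with quality weights), an adjusted p of 0.01, 5 added to each count in ratios, a share without the 25 most abundant genes, and leaving out each library.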

Additional observations from a re-analysis of the deposited data

Results flagged for a closer look

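In 32 screens of the 4 libraries of a group (levels of the 10 genes, 5 ratios and the metallothionein share), 2 picked a library far from the other 3. Chance picks about 1 in 20 of separate screens, and these share libraries and genes. Burn replicate 2 held 0.0798% of its counts in the metallothioneins, and its distance to the next burn library was 0.943 of the whole range of the group, above Dixon's critical value. Control replicate 2 stood at 6.09 log2 CPM for Nqo1, a distance of 0.920 of the range of the controls.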

How the results depend on the processing

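No paired analysis was possible because replicate numbers only name the libraries and no label links a burned paw to its opposite paw. Of 245 recomputed values, 195 kept their direction and side of the threshold, or, where no test was made, stayed within 1 SD (for counts and SDs, within 1.5 times). Members called lower numbered 0 with no filter (Hmox1 -1.76, adjusted p = 0.0517; 6.77% of all genes lower), by limma-voom (-1.41, 0.0981; 11.7%), with quality weights (-1.58, 0.116; 15%) and at an adjusted p of 0.01 (1.88%), where 0 were higher (2.89% of all genes). Quality weights gave 2 higher members, with Sod1 at 0.49 (adjusted p = 0.0465), where 15.8% of all genes were higher. Hmox1 and Gclm kept their direction in every setting run, over -1.98 to -0.95 and 0.59 to 0.91, with adjusted p-values of 0.00564 to 0.116 and 0.000221 to 0.0550. Library size alone moved the median of all genes from 0.06 to -0.15.

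Signs turned for uncalled genes. Mt2A was at -0.22 by library size alone, -0.18 by limma-voom, -0.40 with quality weights, and -1.01, -0.14 and -0.05 without burn replicate 2, control replicate 3 and control replicate 4. Nqo1 was at -0.044 by limma-voom, -0.44 with quality weights and -0.59 without burn replicate 3. Nfe2l2 was at 0.04, 0.16 and 0.03 without burn replicate 1, burn replicate 4 and control replicate 2. Sod2 was at -0.29 without burn replicate 2, and Cat at 0.059 with quality weights and 0.073 without burn replicate 3. The difference in metallothionein share was -0.00526 percentage points, 0.00530 without the 25 most abundant genes in the total, and -0.0210 to 0.00563 leaving out 1 library. The cause of these changes was not tested.

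Leaving out 1 library at a time left 0 to 3 genes higher and 0 to 1 lower. None was higher without control replicate 1 or 2, where 5.58% and 4.62% of all genes were, and Mt1, Gclm and Sod1 were without burn replicate 3 (16.0%). The share of all genes lower was 3.75% to 13.3%. Burn SDs without burn replicate 3, an alternative chosen after seeing the data, were 1.66 for Mt1, 0.38 for Nqo1 and 0.11 for Cat. Log2 fold changes ran over 0.35 to 2.67 for Mt1, -1.01 to 0.59 for Mt2A, -1.98 to -0.95 for Hmox1, -0.59 to 0.50 for Nqo1, -0.52 to -0.21 for Gclc, 0.72 to 0.91 for Gclm, -0.19 to 0.16 for Nfe2l2, 0.37 to 0.56 for Sod1, -0.29 to 0.69 for Sod2 and -0.15 to 0.07 for Cat. Such refits have fewer samples. A ratio could not reach 0.05 in them, the smallest exact p being 0.0571, and was given no test.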
